A study of Mus musculus with 12 samples.

Results

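Axon guidance ligands and receptors were examined in RNA-Seq libraries of somatosensory cortex from P7 mice (postnatal day 7). The genes were chosen by name. Gene symbols of the semaphorins of classes 3 to 7, plexins, neuropilins, ephrins, Eph receptors, Slits, Robos, netrins, Unc5 receptors and Dcc were taken from the deposited files, estimated counts were summed per symbol, and symbols with 10 or more counts over the 12 libraries were kept. These were 72 of the 24452 symbols in the files. For 3 of the 72 (Unc50, Unc5cl and Plxna4os1) only the name matches, so 69 are guidance genes. A level high enough for testing was found for 68 of the 72. Epha1, Ntn5, Unc5cl and Plxna4os1 did not pass the edgeR filter on low counts.

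The 4 groups were male C57BL/6 mice, wild type (WT) or p53 KO, that received ethanol or saline by intraperitoneal injection at P7, with 3 libraries per group and tissue collected 8 hr after the second of a pair of injections. The p53 KO mice carry a targeted disruption of Trp53 in all cells and were born to heterozygous parents, as were the WT mice. Libraries are named here by group and number, as WT saline 1, 3 and 13, WT ethanol 4, 5 and 14, KO saline 7, 8 and 9, and KO ethanol 10, 12 and 18. The labels do not give litters or say which libraries came from laser microdissection and which from a hole punch, so p-values measure the spread between these libraries, which may be partly technical. Trp53 was counted at 2.07 to 26.1 CPM (counts scaled to library size) in the 6 WT libraries and at 11.1 to 34.5 in the 6 KO libraries, so the count of the whole gene does not check the genotype labels.

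Axon guidance molecules steer growing axons and migrating neurons, and many act later in the forming of synapses and the pruning of branches. Secreted class 3 semaphorins bind neuropilins, which signal through plexins, whereas other semaphorins bind plexins directly. Ephrins are held on the cell surface and bind Eph receptor tyrosine kinases, with signals running into both cells. Slits repel axons through Robo receptors, and netrins attract through Dcc or repel with Unc5 receptors. In the first postnatal week these systems act in the map of thalamic axons onto cortical barrels and in callosal and layer-specific wiring.

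Several libraries held markers of tissue other than their label, and WT ethanol 4 stood out by those of thalamus. The summed RPKM (reads scaled by transcript length and library size) of 4 thalamic markers (Tcf7l2, Prkcd, Gbx2 and Lhx9) was 269 in WT ethanol 4 and between 4.96 and 16.2 in the other 11 libraries. The RPKM of Tcf7l2 was 161 in WT ethanol 4 and at most 8.34 elsewhere, and that of Gbx2 was 35.3 against at most 0.42. Transthyretin and the other 3 choroid plexus markers summed to 5390 in WT ethanol 4, to 3460 in KO ethanol 18 and to 3110 in KO saline 9. The sum of 5 striatal markers was 442 in WT ethanol 14, 183 in KO ethanol 18 and 149 in WT ethanol 5, and at most 78.1 in the other 9 libraries. In WT ethanol versus saline, 3 of the 3 thalamic markers tested and 4 of the 5 striatal markers were higher at an unadjusted p under 0.05, and Gbx2 was listed at 0 in 5 libraries. Of the other lists, 2 of 6 interneuron, 1 of 5 endothelial and 1 of 4 choroid plexus markers were higher and 2 of 7 microglial markers lower in WT ethanol. Under saline, 1 of 8 excitatory neuron, 1 of 8 oligodendrocyte lineage and 1 of 5 endothelial markers were higher and 1 of 6 astrocyte markers was lower in KO. Also lower in KO saline than in WT saline were 3 of 7 microglial and 3 of 6 mural and fibroblast markers. The mural and fibroblast sum was 167 in WT saline 1, 22.4 and 52.5 in WT saline 3 and 13, and 39.5 to 47.3 in KO saline. The microglial sum was 131, 34.4 and 162 in WT saline 1, 3 and 13, and 42.7 to 92.5 in KO saline. WT saline 3 thus lay below every KO saline library in each sum. Counts of members that use WT ethanol, and the log2 fold changes of the genes named from them, are therefore given with and without WT ethanol 4. The fit without it keeps WT ethanol 5 and 14. Their striatal sums (149 and 442) were above those of WT saline (at most 46.9), so that fit is not free of such markers.

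Depth and composition also differed. The total count was between 719735 in KO ethanol 12 and 17066392 in KO saline 8. In KO ethanol 12, 40 of the 72 genes had fewer than 10 counts. Transcripts of 5000 bases or more took 8.39% to 17.9% of the counts in the WT saline libraries and 10.6% in KO ethanol 12, against 18.1% to 23.4% in the other 8 libraries. The guidance genes are long, with a median transcript length of 4795 bases over the 68 tested against 2957 bases over all 14739 symbols tested. A trend of counts with length and GC content was therefore also taken out of each library, and values of that fit are given beside counts of members and beside the genes described in detail.

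The level of the guidance genes was compared with the deposited RPKM, which is scaled per length. The median over the 69 guidance genes of the mean RPKM in 12 libraries was 4.11, with 13 genes at 10 or more and 7 under 1. Efnb3, a ligand of EphB receptors, was the highest at 47.4, followed by Sema7a, a membrane-anchored semaphorin that binds integrins and Plxnc1, at 42.7. Their spread was wide. In RPKM (mean ± SD, n = 3), Efnb3 was at 40.4 ± 10.6 and 64.8 ± 35.2 in the saline and ethanol groups of WT mice, and at 44.1 ± 9.97 and 40.1 ± 7.79 in those of KO mice. For Sema7a these values were 28.0 ± 20.4 and 25.7 ± 24.9 in WT mice and 62.1 ± 41.0 and 55.2 ± 39.8 in KO mice. The highest members of the other receptor classes were Epha4 (24.1), Plxna1 (22.8), Ephb6 (21.4), Robo2 (20.9), Nrp1 (6.82) and Unc5a (5.78). Among the ligands, Efna3 led the ephrin-A genes at 19.1, Slit1 the Slits at 5.50 and Ntn1 the netrins at 1.43. The secreted netrins were thus all below the median of 4.11, whereas Slit1 lay above it. Slit1 and Ntn1 were below the leading ephrins and semaphorins. Epha1, Epha2, Ephb4, Ntn5, Sema3b, Sema3g and Unc5b were under 1 RPKM.

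**Figure D1:**
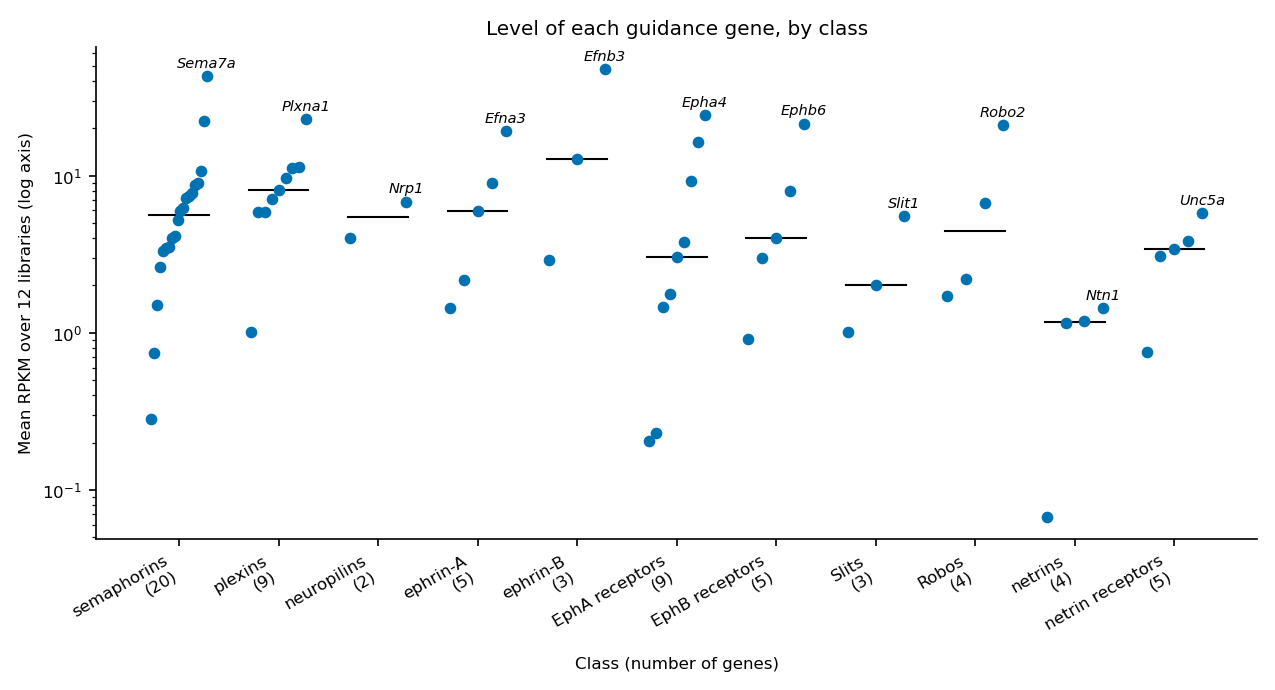
Mean deposited RPKM over the 12 libraries on a log axis for each of the 69 guidance genes, grouped by class, with the median of each class as a line and the highest gene named. Efnb3 (47.4) and Sema7a (42.7) were highest, and no netrin exceeded 1.43.

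The first comparison asks which guidance genes differed after ethanol in WT mice. In an edgeR quasi-likelihood fit, 15 of the 68 members were higher in WT ethanol than in WT saline at an unadjusted p under 0.05 (9.99% of all symbols tested were) and 1 was lower (8.36% of all symbols). The 15 were the plexins Plxnc1 and Plxnd1, the semaphorins Sema4d, Sema5a and Sema6d, the neuropilin Nrp2, the EphA receptors Epha3, Epha5 and Epha10, the Slits Slit1 and Slit3, the receptor Robo1, the netrins Ntn1 and Ntn4, and Dcc. Ephb6 was lower. A value is said here to have passed where this unadjusted p was under 0.05, and SE stands for standard error on the log2 scale. None of these members had a Benjamini-Hochberg adjusted p under 0.05 over all symbols, whereas 11 of the 14739 symbols did. In bulk tissue, fewer cells of a type and less RNA per cell cannot be told apart. The lowest adjusted p of a member was 0.0967, and 18 members had one under the study's level of 0.30, a share near that of all symbols (22.5%). The median log2 fold change of the members was 0.46, against 0.06 over all symbols, and 52 of the 68 were positive. The groups of 3 libraries did not overlap for 11 members, all higher in WT ethanol (11.3% of all symbols were higher in this way and 8.3% lower).

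Fewer members passed without WT ethanol 4. Then 6 members were higher at an unadjusted p under 0.05 (5.86% of all symbols), namely Plxnc1, Ntn1, Epha10, Sema6d, Slit3 and Plxnd1, and Nrp1 alone was lower (3.65% of all symbols). The members' median log2 fold change was then 0.21, with 43 of 68 positive, and no member had an adjusted p under 0.30. Of the 15 members called higher, 14 had their highest WT ethanol value in WT ethanol 4, Plxnd1 being the exception. Of the 68 members, 24 had their highest value of all 12 libraries in WT ethanol 4. In 10 of the 15, WT ethanol 5 and 14 were both above every WT saline library as well (Dcc, Epha3, Epha10, Ntn1, Ntn4, Plxnc1, Plxnd1, Sema4d, Sema6d and Slit3). The 15 were picked by p from these same libraries, so counts over them follow in part from that choice. Shares over all symbols are not given for the counts of 14, 24 and 10, so these counts do not set the members apart from other symbols. The part of the thalamic markers in the difference was not tested beyond leaving WT ethanol 4 out, and that of the striatal markers was not tested.

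With the trend with transcript length and GC content removed, 6 members were higher (6.77% of all symbols) and 9 lower (12.3% of all symbols), and the members' median was -0.12, close to -0.14 for all symbols. The 9 were Efna5, Efnb2, Epha4, Ephb6, Nrp1, Robo2, Sema3c, Sema3d and Sema6a. Without WT ethanol 4 as well, 4 were higher (5.04% of all symbols) and 3 lower (7.03% of all symbols). Plxnc1, Ntn1 and Epha10 were higher in all 4 of these fits, and no member was lower in all 4. The 4 fits share most of their libraries, so they are not independent. The share of all symbols higher in all 4 is not given.

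**Figure D2:**
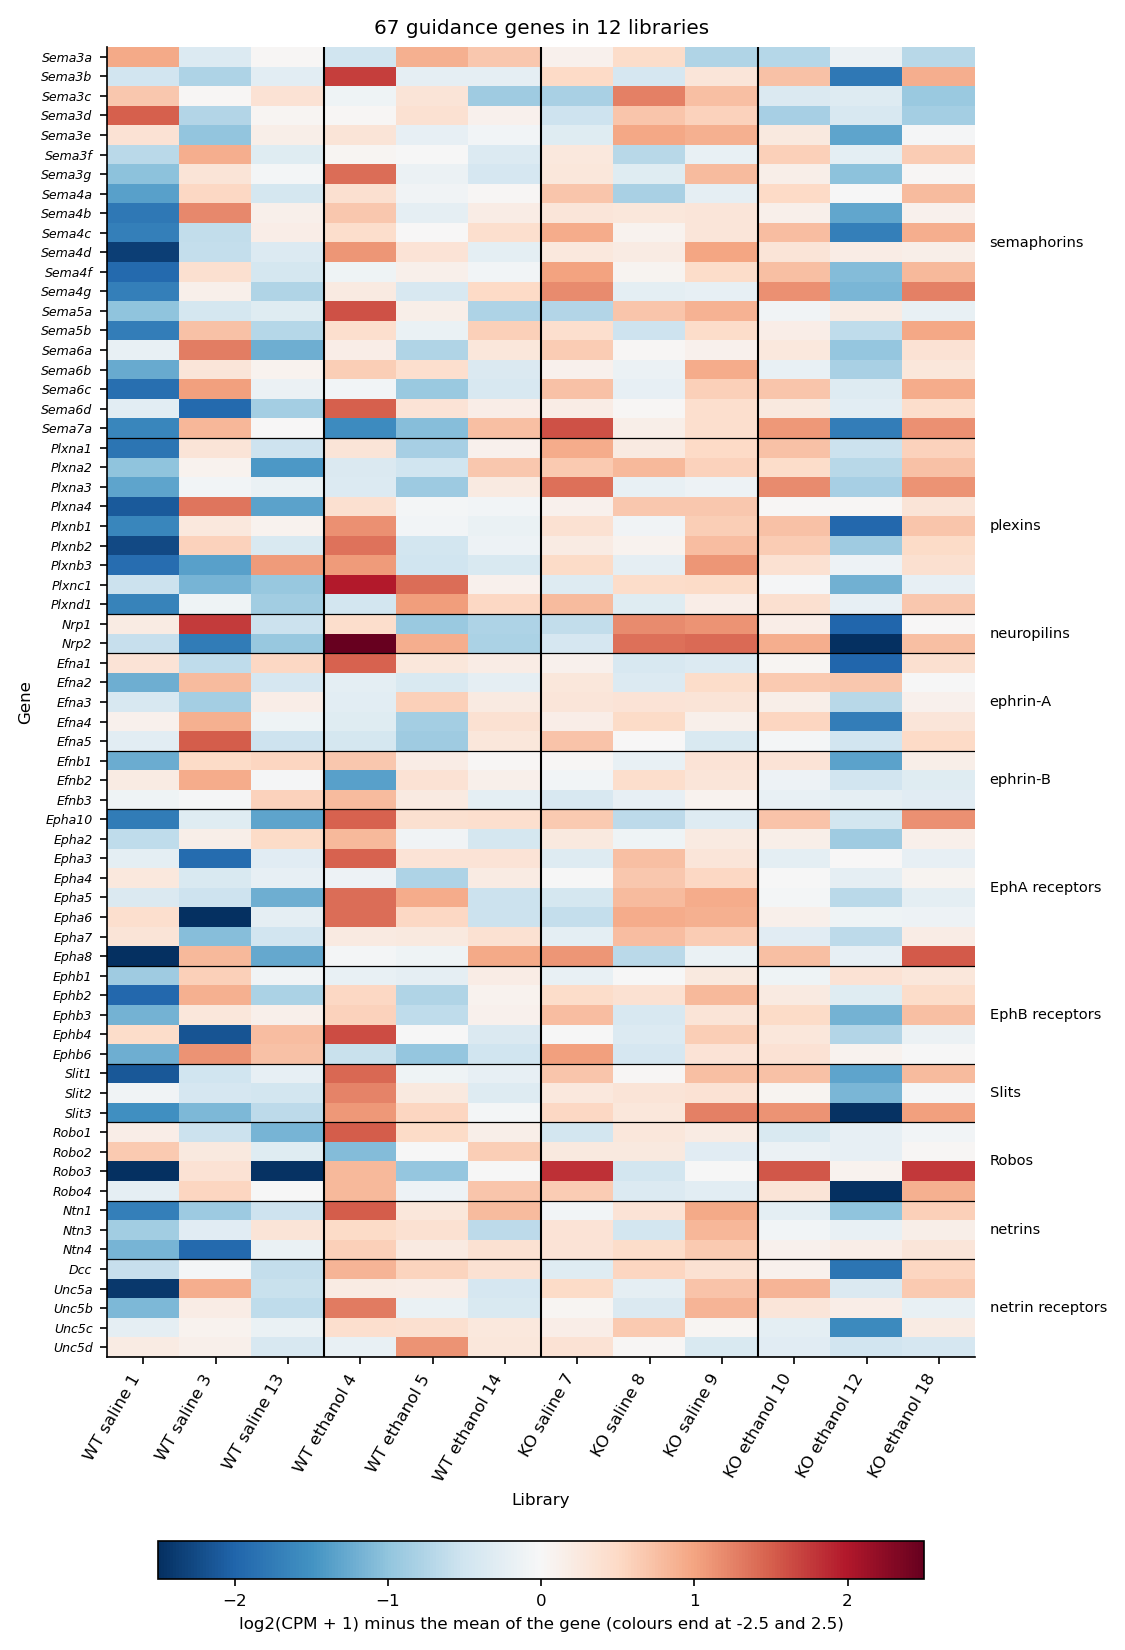
Heat map of the 67 guidance genes tested (rows, grouped by class) in the 12 libraries (columns, grouped by genotype and treatment), as log2(CPM + 1) minus the mean of the gene, where CPM is the count scaled to library size with TMM factors. WT saline 1 is blue in most rows, with the lowest value of 12 libraries for 30 of 68 members, and WT ethanol 4 holds the highest value for 24. Shares over all symbols are not given for these counts.

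Plxnc1 (chr10:94790866-94944578, mm10) encodes plexin C1, a receptor for Sema7a, and had the smallest p of all members. Its CPM was 24.3, 15.4 and 18.1 in WT saline 1, 3 and 13. It was 144, 95.8 and 38.5 in WT ethanol 4, 5 and 14. In KO saline 7, 8 and 9 it was 28.4, 49.7 and 50.3, and in KO ethanol 10, 12 and 18 it was 35.3, 15.0 and 30.8. All 3 WT ethanol libraries were above all 3 WT saline libraries, and the KO groups overlapped each other. The log2 fold change after ethanol in WT was 2.26 (SE 0.48, adjusted p = 0.0967 in edgeR). It was 1.77 without WT ethanol 4 (SE 0.48, passed), 1.34 with the trend removed (SE 0.40, passed) and 1.14 with both (SE 0.44, passed). Leaving out each library in turn, it lay between 1.77 and 2.56.

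The other plexins showed smaller differences. All 9 plexins had a positive log2 fold change after ethanol in WT, from 0.05 for Plxna4 to 2.26 for Plxnc1. At the unadjusted threshold 2 of them were higher (9.99% of all symbols). Without WT ethanol 4, 7 of the 9 were positive and 2 were higher (5.86%). With the trend removed only 3 of the 9 were positive and 1 was higher (6.77%). Plxnd1, the receptor through which Sema3e acts on vessels and axons, was at 20.0, 61.2 and 35.5 CPM in WT saline and 47.4, 136 and 94.7 in WT ethanol, so that the groups overlapped. Plxnd1 had a difference of 1.26 on the log2 scale (SE 0.48, adjusted p = 0.216) and was 1.57 without WT ethanol 4 (SE 0.49, passed). It was 0.54 with the trend removed (SE 0.46, not passed) and 0.98 with both (SE 0.32, passed).

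Among the semaphorins, 3 of 20 were higher (9.99% of all symbols) and none was lower (8.36%) at the unadjusted level. Without WT ethanol 4, 1 was higher (5.86%) and none was lower (3.65%). With the trend removed, 1 was higher (6.77%) and 3 were lower (12.3%). Sema6d, a transmembrane semaphorin that binds plexin A1, was at 40.4, 11.8 and 26.3 CPM in WT saline and 138, 62.1 and 54.6 in WT ethanol, which did not overlap. Its log2 fold change was 1.68 (SE 0.46, adjusted p = 0.170), and it was 1.12 (SE 0.45, passed) without WT ethanol 4 and 0.76 (SE 0.41, not passed) with the trend removed. It is listed as 7 transcripts, and all 7 were positive, with log2 fold changes from 0.92 (NM_199239) to 5.96 (NM_001290997). The most abundant was NM_199239 (mean count 237.3), which did not pass, and NM_001290997 had a mean count of 48.9. Sema4d, a transmembrane ligand of plexin B1, was at 2.02, 9.26 and 11.3 CPM in WT saline and 32.2, 18.8 and 12.1 in WT ethanol, which did not overlap. From all libraries its difference was 1.49 on the log2 scale (SE 0.55), and it was 1.03 without WT ethanol 4 (SE 0.58, not passed) and 0.99 with the trend removed (SE 0.43, passed). Sema5a was at 128 CPM in WT ethanol 4, with 46.5 and 24.1 in the other WT ethanol libraries and 20.4 to 33.8 in WT saline, and its log2 fold change of 1.24 became 0.31 without WT ethanol 4 (SE 0.49, not passed) and 0.19 with the trend removed (SE 0.50, not passed). Sema3a, a secreted repellent of cortical axons, was at 76.6, 30.9 and 40.2 CPM in WT saline and 27.6, 73.7 and 63.4 in WT ethanol, with a log2 fold change of 0.15 (SE 0.46, adjusted p = 0.883) and of 0.46 (SE 0.47, not passed) without WT ethanol 4.

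Nrp2, the neuropilin that binds Sema3f, was at 10.5, 4.11 and 7.87 CPM in WT saline and at 156, 31.3 and 8.96 in WT ethanol 4, 5 and 14. WT ethanol 14 lay within the WT saline range, and WT ethanol 4 stood far above the other libraries. The log2 fold change of 3.09 (SE 0.99, adjusted p = 0.197) was 1.37 without WT ethanol 4 (SE 0.85, not passed) and 2.05 with the trend removed (SE 0.84, passed). All 6 Nrp2 transcripts were positive, from 1.97 to 5.57. Nrp1, the receptor for Sema3a, was at 41.7, 123 and 24.4 CPM in WT saline and 49.0, 18.5 and 20.9 in WT ethanol. Its log2 fold change was -1.08 (SE 0.67, adjusted p = 0.385), -1.66 without WT ethanol 4 (SE 0.75, passed) and -1.45 with the trend removed (SE 0.61, passed).

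**Figure D3:**
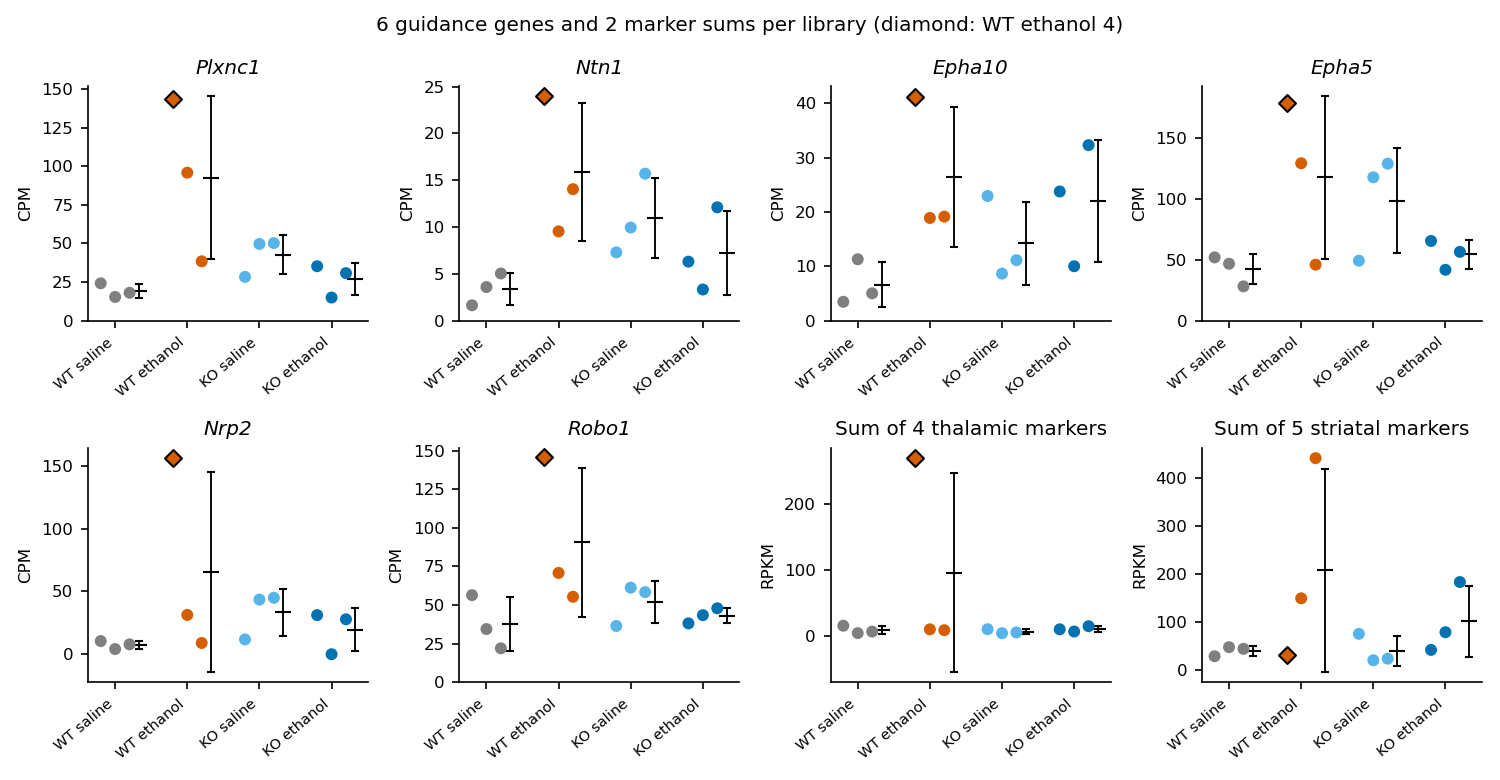
TMM-normalized CPM of Plxnc1, Ntn1, Epha10, Epha5, Nrp2 and Robo1 and the summed RPKM of thalamic and striatal markers in each library (points), with the mean and SD of each group beside them (bar and whiskers, n = 3). The diamond marks WT ethanol 4, which is the highest library for all 6 genes and for the thalamic markers (269), but not for the striatal markers (31.0).

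Of 8 EphA receptors tested, 3 were higher (9.99% of all symbols) and 7 were positive (median log2 fold change 0.97). With all libraries none of the 5 ephrin-A or 3 ephrin-B genes passed, and their medians were -0.20 and 0.14. Without WT ethanol 4, 1 EphA receptor was higher (5.86% of all symbols), 6 were positive and no ephrin passed. With the trend removed, 1 EphA receptor was higher (6.77%) and 1 lower (12.3%), and 1 ephrin-A and 1 ephrin-B gene were lower. The difference between the classes was not tested. Epha10 (chr4:124881785-124917800), a catalytically inactive Eph receptor, was at 3.49, 11.3 and 5.05 CPM in WT saline and 41.2, 18.9 and 19.1 in WT ethanol, which did not overlap. Ethanol over saline, its log2 fold change was 2.08 (SE 0.58, adjusted p = 0.178), 1.60 without WT ethanol 4 (SE 0.60, passed), 1.34 with the trend removed (SE 0.35, passed) and 1.20 with both (SE 0.39, passed). The KO libraries overlapped both WT groups, at 22.9, 8.67 and 11.1 CPM in KO saline and 23.8, 10.0 and 32.3 in KO ethanol.

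Epha5, a receptor of ephrin-A5 in topographic maps, was at 52.0, 46.8 and 28.2 CPM in WT saline and 178, 129 and 46.0 in WT ethanol, so WT ethanol 14 fell within the saline range. This gave a log2 fold change of 1.48 (SE 0.49, adjusted p = 0.203) and of 1.04 without WT ethanol 4 (SE 0.50, not passed) and 0.79 with the trend removed (SE 0.39, not passed). Epha3, a close relative, was at 5.51, 1.03 and 5.27 CPM in WT saline and 20.4, 8.71 and 8.78 in WT ethanol. Its log2 fold change of 1.59 (SE 0.57, adjusted p = 0.208) was 1.03 without WT ethanol 4 (SE 0.58, not passed) and 1.04 with the trend removed (SE 0.49, not passed).

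Epha4 and Epha7, which are abundant in cortex, did not pass the test. Epha4 was at 126 to 196 CPM in WT saline and 96.4 to 189 in WT ethanol (log2 fold change -0.09, SE 0.35, adjusted p = 0.908, and -0.13 without WT ethanol 4). Epha7 was at 35.0 to 93.0 and 87.6 to 97.0 CPM (0.58, SE 0.40, adjusted p = 0.432, and 0.59 without WT ethanol 4). Efna5, the ligand that shapes the thalamocortical map, was at 39.3, 136 and 32.8 CPM in WT saline and 34.4, 24.9 and 57.4 in WT ethanol, with a log2 fold change of -0.82 (SE 0.54, adjusted p = 0.410) and of -0.73 (SE 0.62, not passed) without WT ethanol 4. With the trend removed it was -1.26 (SE 0.57, passed), so Efna5, like Epha4 (-0.78, SE 0.30, passed), passed in that fit and not with all counts as deposited. With the trend removed and without WT ethanol 4, neither Efna5 (-1.17, SE 0.67) nor Epha4 (-0.72, SE 0.35) passed.

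Among EphB receptors, Ephb6, a receptor without kinase activity, was lower. Its CPM was 34.0, 175 and 134 in WT saline and 54.4, 40.6 and 56.7 in WT ethanol. Because WT saline 1 was below all WT ethanol libraries, the groups overlapped. For Ephb6 the log2 fold change was -1.17 (SE 0.51, adjusted p = 0.245), -1.23 without WT ethanol 4 (SE 0.60, not passed) and -1.49 with the trend removed (SE 0.33, passed). Ephb1, a kinase receptor that turns retinal axons away from the optic chiasm and is named in the study, was at 21.3, 61.7 and 37.9 CPM in WT saline and 35.4, 34.3 and 45.8 in WT ethanol. The groups overlapped, and the log2 fold change was -0.05 (SE 0.38, adjusted p = 0.951). It was -0.50 (SE 0.32, not passed) after removal of the trend and near 0 (SE 0.44) without WT ethanol 4. By transcript, NM_001168296 was at -1.15 in WT and 1.40 in KO, and NM_173447 at 0.33 and -0.31, and none of these passed. The KO value less the WT value was 2.55 for NM_001168296 (mean count 82.8, passed) and -0.64 for NM_173447 (mean count 332.9, not passed). The study reports a decrease in WT and an increase in KO mice in upper cortical layers, by a targeted assay not analysed here.

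All 3 Slits were positive after ethanol in WT and 2 were higher at the unadjusted level (9.99% of all symbols). Without WT ethanol 4 all 3 were positive and 1 was higher (5.86%). With the trend removed 2 were positive and 1 was higher (6.77%). Slit3 was at 0.919, 1.54 and 2.53 CPM in WT saline and 10.7, 7.04 and 4.39 in WT ethanol, which did not overlap. For Slit3 it amounted to a log2 fold change of 2.09 (SE 0.72, adjusted p = 0.208), 1.69 without WT ethanol 4 (SE 0.75, passed) and 1.24 with the trend removed (SE 0.57, passed), and with both it was 1.17 (SE 0.62, not passed). Slit1, which is made by cortical neurons, was at 73.2 CPM in WT ethanol 4, whereas WT ethanol 5 and 14 (24.6 and 22.8) lay beside WT saline 13 (23.0). The log2 fold change was 1.37, and without WT ethanol 4 it was 0.59 (SE 0.61, not passed). Removal of the trend gave 0.53 (SE 0.37, not passed).

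Robo1, a Slit receptor of callosal and thalamocortical axons, was at 56.4, 34.4 and 22.0 CPM in WT saline and 146, 70.8 and 55.3 in WT ethanol, with overlap between WT saline 1 and WT ethanol 14. For Robo1 the log2 fold change was 1.27 (SE 0.44, adjusted p = 0.208), 0.73 without WT ethanol 4 (SE 0.43, not passed) and 0.31 with the trend removed (SE 0.41, not passed). Robo2, the most abundant Robo, was lowest of all libraries in WT ethanol 4 (87.0 CPM) and was at 183 and 285 in the other WT ethanol libraries, against 149 to 292 in WT saline. Robo2 had a log2 fold change of -0.25 (SE 0.42) from all libraries, 0.08 (SE 0.41) without WT ethanol 4 and -0.93 (SE 0.42, passed) with the trend removed.

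Of the 3 netrins tested, 2 were higher (9.99% of all symbols). Without WT ethanol 4, 1 was higher (5.86%), and 1 was higher with the trend removed (6.77%). Ntn1 (chr11:68209364-68386826), the main attractant for Dcc, was at 1.65, 3.60 and 5.05 CPM in WT saline and 24.0, 9.54 and 14.1 in WT ethanol. The WT groups did not overlap, and KO saline (7.30, 9.96 and 15.7) also lay above WT saline. In KO ethanol it was 6.32, 3.34 and 12.1. The log2 fold change in WT was 2.18 (SE 0.58, adjusted p = 0.161), 1.73 without WT ethanol 4 (SE 0.60, passed), 1.24 with the trend removed (SE 0.45, passed) and 1.16 with both (SE 0.51, passed). Ntn4, a netrin of basement membranes that is also made in layer 4, was at 0.735, 0 and 2.45 CPM in WT saline and 4.81, 3.52 and 4.04 in WT ethanol (1.65, SE 0.66, adjusted p = 0.224). Neither the value without WT ethanol 4 (1.46, SE 0.71) nor that with the trend removed (1.28, SE 0.60) passed for Ntn4.

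All 5 netrin receptors were positive in WT, and 1 was higher at the unadjusted level (9.99% of all symbols). Without WT ethanol 4 all 5 were positive and none passed (5.86% of all symbols were higher). With the trend removed 3 were positive and none passed (6.77% were higher). Dcc was at 21.3, 31.4 and 21.2 CPM in WT saline and 58.8, 48.1 and 42.2 in WT ethanol, without overlap. Its log2 fold change of 1.02 (SE 0.46, adjusted p = 0.260) was 0.88 without WT ethanol 4 (SE 0.52, not passed) and 0.18 with the trend removed (SE 0.32, not passed). Unc5d, a receptor of layer 4 neurons, was highest in WT ethanol 5 (73.7 CPM), with 24.7 to 38.2 in WT saline (0.53, SE 0.39, adjusted p = 0.463, and 0.78, SE 0.40, without WT ethanol 4).

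**Figure D4:**
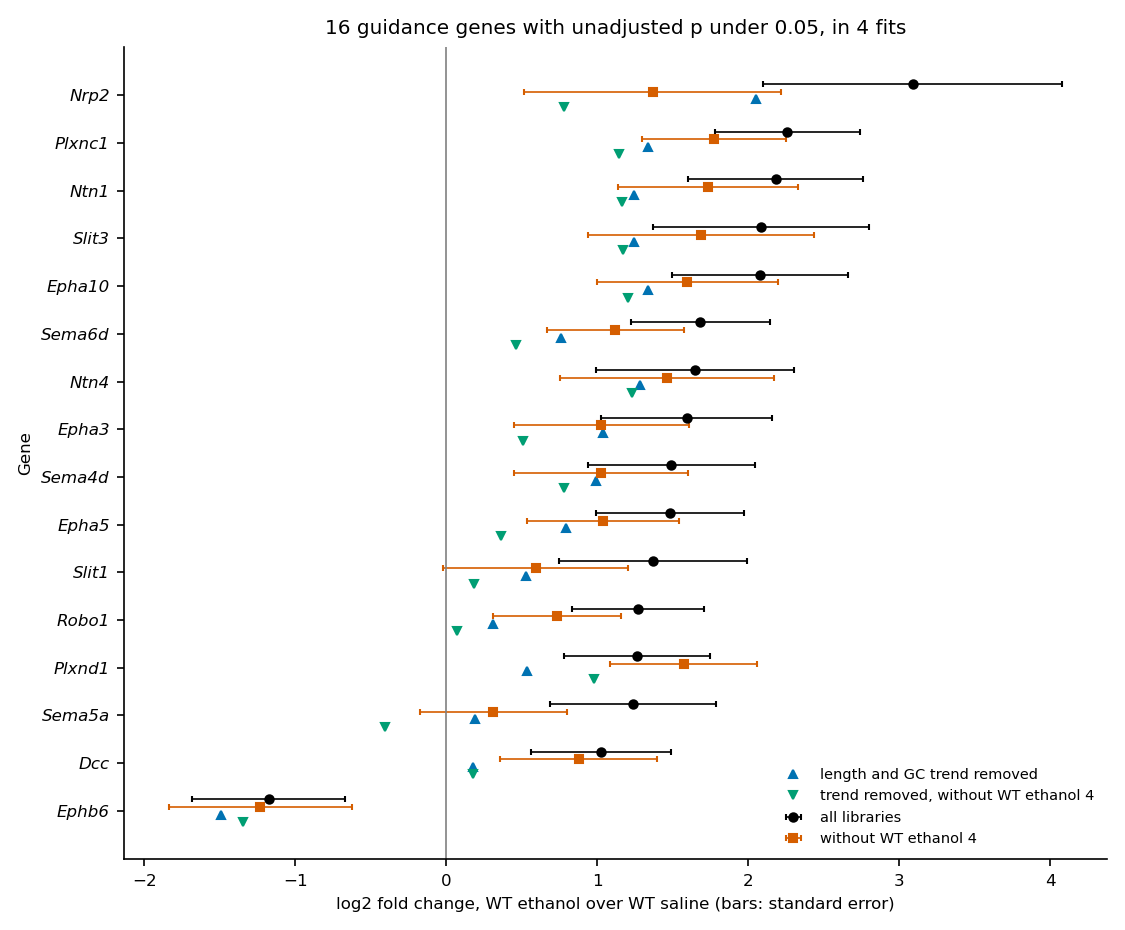
Log2 fold change of WT ethanol over WT saline for the 16 members with an unadjusted p under 0.05, with all libraries, without WT ethanol 4, with the length and GC trend removed, and with both (bars, where drawn, are standard errors). Nrp2 moved most, from 3.09 to 0.78 with both, while Plxnc1, Ntn1 and Epha10 were at 1.14, 1.16 and 1.20.

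Transcript length moved with these calls. The 15 members that were higher had a median transcript length of 6357 bases, against 4544 bases for the other 52 members with p of 0.05 or more. Over all symbols, those higher after ethanol in WT had a median of 4435 bases and those lower 1280 bases. The part of length in the difference was not tested beyond the removal of the trend. The WT saline libraries, in which long transcripts took the smallest share of counts, enter both this comparison and that of the genotypes under saline.

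**Figure D5:**
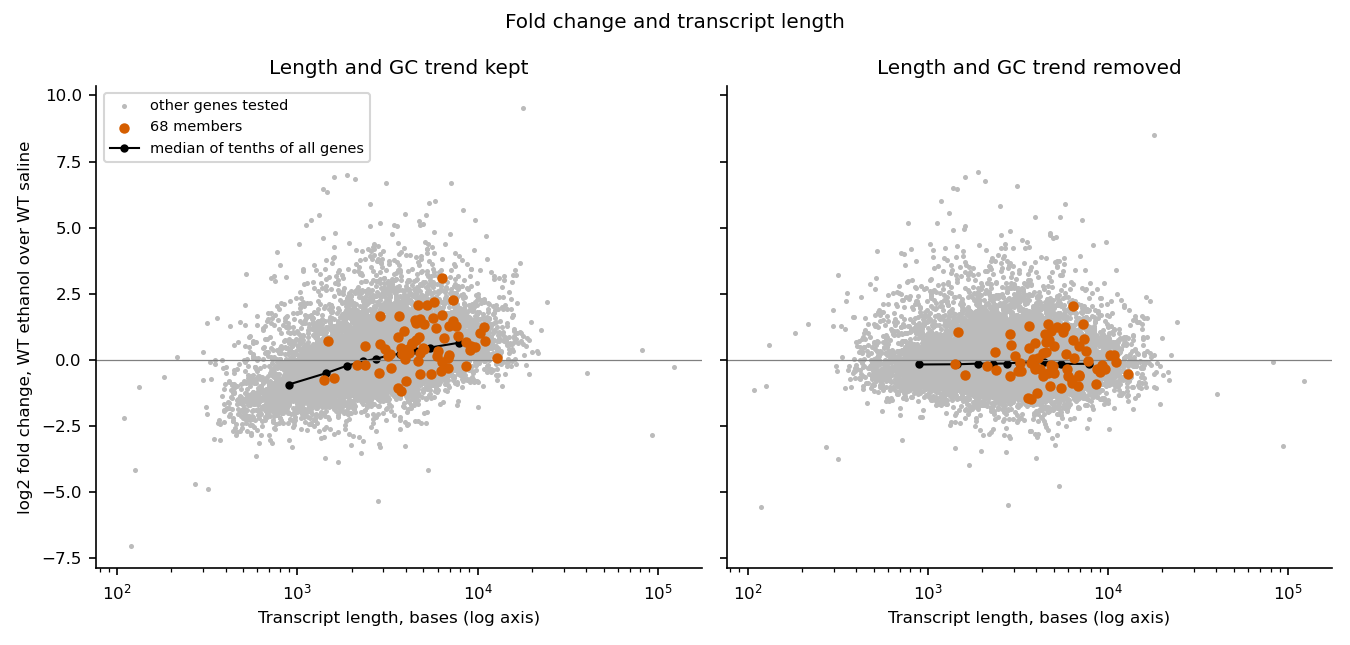
Log2 fold change of WT ethanol over WT saline against transcript length in bases (log axis) for the symbols tested that have a length, with the 68 members in orange and the median of all symbols in bins of length as a line, before (left) and after (right) removal of the length and GC trend. The median line climbs with length on the left and is flat on the right, where the members are centred at -0.12.

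Since the comparison of genotypes turns on p53, a transcription factor, the promoters of the members were read for the p53 half-site consensus, the element to which p53 binds as a pair of copies and which reads the same on both strands. RefSeq promoters on GRCm38.p6 (the mm10 assembly) were found for 61 of the 72 members, with 77 start sites. In the 250 bases before the start, 5 of these 77 held a match (6.49%), against 7.13% of 32851 promoters of all genes. They belonged to Efna4, Ntn3, Plxna3, Robo1 and Sema4d, and Robo1 had 2. Robo1 and Sema4d are shown because they were among the members higher in WT ethanol. Plxnc1 and Epha10 are shown because they were higher in all 4 fits, and neither held a match in this window. Each is written 5′ to 3′ on the strand of the gene and ends at the base before the start, with matches in capitals.
Robo1, chr16:72662899-72663148, plus strand: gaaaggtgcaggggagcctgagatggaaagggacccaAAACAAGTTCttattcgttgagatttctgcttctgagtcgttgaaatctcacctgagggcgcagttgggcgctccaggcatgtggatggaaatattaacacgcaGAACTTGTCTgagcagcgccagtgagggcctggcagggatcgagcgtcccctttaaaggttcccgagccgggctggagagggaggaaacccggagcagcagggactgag
Sema4d, chr13:51748811-51749060, minus strand: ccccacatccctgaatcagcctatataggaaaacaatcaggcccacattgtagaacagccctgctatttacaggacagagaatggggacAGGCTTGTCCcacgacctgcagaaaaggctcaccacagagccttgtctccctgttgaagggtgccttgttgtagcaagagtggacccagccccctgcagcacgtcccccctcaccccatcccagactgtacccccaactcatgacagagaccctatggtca
Plxnc1, chr10:94944846-94945095, minus strand: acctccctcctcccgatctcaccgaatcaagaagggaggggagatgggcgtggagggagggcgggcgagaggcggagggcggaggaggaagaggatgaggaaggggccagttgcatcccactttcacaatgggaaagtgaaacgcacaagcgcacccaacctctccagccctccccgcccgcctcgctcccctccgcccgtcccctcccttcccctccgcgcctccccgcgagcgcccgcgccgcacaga
Epha10, chr4:124881535-124881784, plus strand: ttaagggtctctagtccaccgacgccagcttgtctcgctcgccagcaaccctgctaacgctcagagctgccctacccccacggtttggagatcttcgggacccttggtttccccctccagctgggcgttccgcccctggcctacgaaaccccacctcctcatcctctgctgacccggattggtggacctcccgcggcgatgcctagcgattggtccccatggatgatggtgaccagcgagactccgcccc
The start of Sema4d used here lies inside the span of the deposited gene, and that of Plxnc1 lies upstream of it. The matches began at positions -213 and -109 in Robo1, so these 2 are not adjacent copies, and at -161 in Sema4d, counted from the start. A match is a run of letters and not a measured binding site.

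The second comparison asks how p53 KO mice differed from WT mice under saline. It shares the WT saline libraries with the first, so the 2 are not independent. At an unadjusted p under 0.05, 11 members were higher in KO saline (9.14% of all symbols) and none was lower (10.5% of all symbols). These were Epha5, Nrp2, Ntn1, Ntn4, Plxna2, Plxnc1, Plxnd1, Robo3, Sema4d, Sema6d and Slit3. No member had an adjusted p under 0.05 (8 of all symbols did), the lowest being 0.176, and 14 had one under 0.30 (25.8% of all symbols). The groups did not overlap for 11 members, all higher in KO (12.9% of all symbols, with 10.0% lower). The members' median log2 fold change was 0.60, against 0.04 over all symbols. With the trend removed, the median was 0.07, against -0.13 over all symbols, and 5 members were higher (5.87% of all symbols) and 3 lower (11.6% of all symbols). Single libraries moved the count of calls, to 21 without WT saline 3 and to 4 without KO saline 9. Shares over all symbols are not given for those fits.

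Slit3 had the smallest p under saline, with 6.93, 5.74 and 12.2 CPM in KO saline against 0.919, 1.54 and 2.53 in WT saline. The log2 fold change, KO over WT, was 2.24 (SE 0.72, adjusted p = 0.176) and 1.45 with the trend removed (SE 0.56, passed). Sema4d was at 17.6, 16.9 and 29.7 CPM in KO saline, above every WT saline library (1.51, SE 0.55, adjusted p = 0.185). Ntn4 was at 3.91, 4.33 and 5.09 CPM, also above every WT saline library (1.75, SE 0.65, adjusted p = 0.190). Slit3, Sema4d, Ntn4 and Robo3 were higher both with and without the trend, and the share of all symbols higher in both is not given. Robo3, a Robo of commissural axons, was carried by KO saline 7 (30.2 CPM, against 5.45 and 7.72 in KO saline 8 and 9), while WT saline was at 0.551, 10.3 and 0.594, so the groups overlapped.

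Plxna2, a coreceptor of neuropilins for class 3 semaphorins, was at 190, 212 and 179 CPM in KO saline against 59.2, 129 and 43.8 in WT saline, without overlap. Its log2 fold change was 1.34 (SE 0.48, adjusted p = 0.185) and 0.50 with the trend removed (SE 0.37, not passed). Ntn1, Nrp2 and Plxnc1, described above, were higher by 1.65 (SE 0.57, adjusted p = 0.178), 2.12 (SE 0.96, adjusted p = 0.244) and 1.14 (SE 0.47, adjusted p = 0.211) on the log2 scale. With the trend removed the values of these 3 genes were 0.83 (SE 0.45, not passed), 1.24 (SE 0.83, not passed) and 0.23 (SE 0.40, not passed), so their calls ended.

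The third comparison asks which members differed after ethanol in KO mice. No member was higher (1.15% of all symbols) and 1 was lower (2.01% of all symbols) in KO ethanol than in KO saline at an unadjusted p under 0.05, and the lowest adjusted p of a member was 0.999 in edgeR. The one was Sema3c, a secreted semaphorin, at 20.1, 87.8 and 61.7 CPM in KO saline and 27.9, 28.4 and 18.5 in KO ethanol. KO saline 7 lay within the ethanol range. Sema3c had a log2 fold change of -1.20 (SE 0.50, adjusted p = 0.999) and -0.54 with the trend removed (SE 0.42, not passed). Sema3d had -1.25 (SE 0.59, adjusted p = 0.999) and Epha5 -0.83 (SE 0.49, adjusted p = 0.999). Of the 68 members, 18 were positive, and the median was -0.22 against 0.01 over all symbols. With the trend removed, Sema6b alone was lower and none was higher, and the median was -0.17. KO ethanol 12, with 719735 counts, had the lowest value of all libraries for 17 members, and the share over all symbols is not given.

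After ethanol, no member was higher (0.977% of all symbols) and 5 were lower (2.26% of all symbols) in KO than in WT mice. These were Plxnc1, Robo1, Unc5d, Epha5 and Sema3a. With single libraries left out the count of calls ran from 1, without KO ethanol 10, to 9, without WT ethanol 14. For those 2 fits the shares over all symbols are not given. For Plxnc1 the log2 fold change was -1.72 (SE 0.47, adjusted p = 0.982), and the KO ethanol libraries (15.0 to 35.3 CPM) lay below all WT ethanol libraries (38.5 to 144). Without WT ethanol 4 it was -1.24 (SE 0.48, passed), and with the trend removed -1.46 (SE 0.41, passed). Without WT ethanol 4, no member was higher (0.852% of all symbols) and Plxnc1, Sema3a and Unc5d were lower (0.986% of all symbols), while Robo1 (-0.53, SE 0.43, not passed) and Epha5 (-0.64, SE 0.50, not passed) no longer passed. Sema3a was at 23.4, 35.1 and 23.9 CPM in KO ethanol, and its log2 fold change was -1.03 (SE 0.48, adjusted p = 0.982) with and -1.34 (SE 0.48, passed) without WT ethanol 4. The members' median was -0.19 with all libraries and 0.18 without WT ethanol 4. After removal of the trend, 3 members were higher and 2 lower, with Ephb6, Plxna3 and Sema6c higher (0.997% of all symbols) and Ntn1 and Plxnc1 lower (1.79% of all symbols). Plxnc1 was lower in all 4 fits, which share most of their libraries, and the share of all symbols lower in all 4 is not given.

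The Genotype x Treatment interaction, which is the log2 fold change after ethanol in KO less that in WT, was lower than 0 for 13 members (7.67% of all symbols) and higher for none (7.5% of all symbols) at an unadjusted p under 0.05. These were Epha3, Epha5, Epha7, Nrp2, Ntn1, Ntn4, Plxnc1, Robo1, Sema4d, Sema5a, Sema6d, Slit2 and Slit3. The interaction uses all 12 libraries and so shares them with the comparisons above. Adjusted p was under 0.30 for 8 members (11.1% of all symbols) and the lowest was 0.250. On the log2 scale the interaction was -2.86 for Plxnc1 (SE 0.67, adjusted p = 0.250) and -2.64 for Ntn1 (SE 0.79, adjusted p = 0.250). It was -2.32 for Epha5 (SE 0.69, adjusted p = 0.250), -3.71 for Nrp2 (SE 1.33, adjusted p = 0.259) and -1.72 for Sema6d (SE 0.64, adjusted p = 0.266). Without WT ethanol 4, 5 members passed below 0 (4.9% of all symbols) and none above (5.82%), and the median over members moved from -0.72 to -0.35. The count of calls was 6 without KO saline 9, 7 without KO ethanol 10 and 8 without KO saline 8. The shares over all symbols in those fits are not given. Among the 5 without WT ethanol 4 were Plxnc1 (-2.35, SE 0.65, passed) and Ntn1 (-2.16, SE 0.80, passed). Both passed with the trend removed as well (-1.70, SE 0.57, and -1.85, SE 0.64). Nrp2 was at -1.96 (SE 1.14, not passed) without WT ethanol 4 and at -2.49 (SE 1.16, passed) with the trend removed. Epha5 was at -1.85 (SE 0.68, passed) and -0.85 (SE 0.55, not passed) in these fits, and Sema6d at -1.13 (SE 0.61, not passed) and -0.53 (SE 0.59, not passed). In the fit without the trend, 4 members were below 0 (Epha7, Nrp2, Ntn1 and Plxnc1, with 3.77% of all symbols) and 2 above (Ephb6 and Robo2, with 5.5% of all symbols), 33 of the 68 were positive, and the median was -0.04 against 0.12 over all symbols.

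Beyond the ligands and receptors, a list of 80 genes that carry or modify guidance signals was read, such as exchange factors, kinases of the actin cytoskeleton and other guidance cues. All 80 were tested. In WT ethanol versus saline, 11 were higher (9.99% of all symbols) and 2 lower (8.36%) at an unadjusted p under 0.05, with a median log2 fold change of 0.26. Without WT ethanol 4, 7 were higher (5.86% of all symbols) and none was lower (3.65%), and with the trend removed 7 were higher (6.77%) and 10 lower (12.3%). Flrt1, an adhesion protein of the FLRT family, and Dscam, an adhesion receptor that also binds netrin-1, were higher in each of these 3 fits. So were Ssh1, a cofilin phosphatase, and Mical2, an enzyme that oxidizes actin. The share of all symbols higher in all 3 is not given. Flrt1 was higher by 2.39 on the log2 scale (SE 0.67, adjusted p = 0.180), and by 1.71 (SE 0.65) without WT ethanol 4. Dscam was higher by 1.60 (SE 0.46, adjusted p = 0.184), and by 0.99 (SE 0.43) without it. Ssh1 was at 2.40 with all libraries, 1.90 (SE 0.70) without WT ethanol 4 and 1.42 (SE 0.58) with the trend removed, and Mical2 was at 1.60 with all libraries and 1.88 (SE 0.72) without WT ethanol 4. Trio, an exchange factor downstream of Dcc, was at 1.40 (SE 0.42, adjusted p = 0.187) and at 1.08 (SE 0.44, passed) without WT ethanol 4, and at 0.45 (SE 0.27, not passed) with the trend removed. Ntng1, netrin-G1, an adhesion protein of thalamic axons, was at 3.78 (SE 1.02, adjusted p = 0.165) and at 0.85 (SE 0.59, not passed) without WT ethanol 4. The GTPase Rac1 (-0.83, SE 0.36, adjusted p = 0.249) and the actin regulator Evl (-0.83, SE 0.35, adjusted p = 0.239) were lower. Without WT ethanol 4 their values were as large, -0.87 (SE 0.44) and -0.83 (SE 0.42), but did not pass, and with the trend removed both passed, at -1.28 (SE 0.37) and -0.77 (SE 0.31). In KO saline versus WT saline, which shares the WT saline libraries, 15 were higher (9.14% of all symbols) and 3 lower (10.5%), with a median of 0.33. In the fit without the trend 6 were higher (5.87%) and 5 lower (11.6%), and the median was -0.03. Trio (1.81), Dscam and Flrt1 were higher in both fits and Rac1 and Evl lower in both, while Cdc42 was lower only with the counts as deposited. In KO mice after ethanol, Pak3 alone was lower (2.01% of all symbols) and none was higher (1.15%). With the trend removed Pak3 was at -0.28 (SE 0.42, not passed), and Dpysl3 alone was lower. After ethanol in KO versus WT mice, Rtn4r, the Nogo receptor, was higher (0.977% of all symbols) and Pak3 and Ntng1 were lower (2.26%), and without WT ethanol 4 none passed. Once the trend was removed, Rtn4r was higher and Ntng1 lower. The interaction was below 0 for 9 (7.67% of all symbols) and above for none (7.5%), and without WT ethanol 4 it was below 0 for 4 (4.9%). It was above 0 with the trend removed for 5 (Nck1, Rac1, Chn1, Neo1 and Dcx, with 5.5% of all symbols) and below for 2 (Trio and Ntng1, with 3.77%).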

How the data were processed

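Stranded total RNA-Seq libraries were made from somatosensory cortex of 12 mice and sequenced as single-end reads of 75 bases. After quality filtering, the authors mapped reads to mm10 (Bowtie2 run by TopHat), and Partek Flow gave a value for each RefSeq transcript. The deposited estimated counts, 1 per transcript and library, are not normalized and hold fractions, and the strand setting of the counting is not given in the sources used here. RPKM values, also deposited, come from the same reads, and once sorted they are nearly equal between libraries. Groups were taken from the sample labels and replicate numbers are the library numbers there.

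Counts were summed per symbol and rounded. The quasi-likelihood test of edgeR 4.0.16, run in R 4.3.3, was applied to symbols that passed filterByExpr, with TMM factors and all 12 libraries in 4 group means. The 5 contrasts were tested two-sided and adjusted by Benjamini-Hochberg for 14739 symbols. The standard error was derived from the F statistic. Library totals ran from 719735 to 17066392, and no interval is given for single libraries, since counting error is only part of their spread. Levels between genes were compared by RPKM, and between libraries by TMM-normalized CPM. Transcript lengths and GC content were those of the transcript with the highest count in GENCODE M21, and coordinates are those of the deposited files. Genes were named by a rule: the highest member of each class, the 10 or 5 members with the smallest p in each contrast, Ephb1, and genes known for cortical wiring. Genes outside this rule are named in counts or lists of calls and were chosen after their values were seen.

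Alternatives were DESeq2 1.42.0, no TMM factors, other count filters, the most abundant transcript, limma 3.58.1 with a pseudocount of 1 or 0.1 on log2 RPKM, a linear model of untransformed RPKM, the letter that begins a library's name as a covariate, a fit of only the groups compared, a fit that drops the 2 libraries named with L (WT saline 3 and KO ethanol 12), splines of length and GC content (5 degrees of freedom each) subtracted per library, and leaving out each library. Removal of either trend alone, and of both without certain libraries, was added after seeing the data. The fits were tested on simulated data. The members and lists were chosen with earlier results of these data known. The targeted and layer-specific experiments of the study were not analysed here. Python 3.11.15 with pandas 2.3.3 and numpy 2.4.6 made the summaries, and matplotlib 3.10.9 the plots.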

Additional observations from a re-analysis of the deposited data

How the results depend on the processing

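No paired analysis was possible because the library numbers differ between all groups. Counts of members at an unadjusted p under 0.05 are given in the order WT ethanol versus saline, KO ethanol versus saline, KO versus WT under saline, KO versus WT after ethanol and interaction, where they were 16, 1, 11, 5 and 13. With each library left out in turn they ran from 7 to 24, from 0 to 3, from 4 to 21, from 1 to 9 and from 5 to 15. The 7 and the 5 came without WT ethanol 4, and the 24, the 21 and the 15 without WT saline 3. The 4 came without KO saline 9, the 1 without KO ethanol 10 and the 9 without WT ethanol 14. In KO ethanol versus saline the 3 came without KO saline 7, and 0 came without KO saline 8, KO saline 9 or KO ethanol 10. In KO versus WT after ethanol the count was also 8 without WT saline 1, and 3 without WT ethanol 4, WT ethanol 5, KO saline 9, KO ethanol 12 or KO ethanol 18. Of the 68 members tested, 32 had 10 or more counts in all 12 libraries. The fits that ask for at least 10 counts in every library therefore rest on fewer members than the others. In WT ethanol versus saline the count was 6 with at least 10 counts in every library, 8 by limma with either pseudocount, 6 without its filter, 4 by the linear model on RPKM, 27 without both libraries named with L and 7 with the trend removed and without WT ethanol 4. In KO versus WT under saline it was 21 without TMM factors, 6 with at least 10 counts in every library, 6 by limma on log2(RPKM + 1) with or without the filter, 4 by the linear model, 23 without the L libraries, 7 with the letter as covariate and 3 with the length trend removed. In the interaction it was 6 with at least 10 counts in every library, 8 for the most abundant transcript, 5 by limma with either pseudocount, 6 without its filter, 3 by the linear model, 6 with the letter as covariate, 6 with both trends removed, 2 with the length trend removed, 3 with both trends removed and without the L libraries, and 3 with them removed and without WT ethanol 4. In KO versus WT after ethanol it was 3 without TMM factors, 1 by limma on log2(RPKM + 0.1), 2 by limma without the filter, 2 by the linear model, 9 without the L libraries, 3 with the letter, 9 with only the groups compared, 2 with the length trend removed, 9 with both trends removed and without the L libraries, and 3 with them removed and without WT ethanol 4. In KO ethanol versus saline it was 2 without TMM factors, 2 with at least 1 count in any library, 0 by limma with either pseudocount, 3 without the L libraries, 0 with the letter, 2 with only the groups compared, 0 with the length trend removed and 2 with both trends removed and without the L libraries. For the members named by their p, Plxnc1 stayed under 0.05 in WT ethanol versus saline in all 28 alternatives run, and 2 values changed sign. These were Sema6d (-0.15) and Plxnd1 (-0.054) in KO versus WT under saline with both trends removed and without the L libraries. The causes were not tested. Shares over all symbols are not given for most of these alternatives, and they moved as well. The share higher in WT ethanol was 9.99% with all libraries and 5.86% without WT ethanol 4. These counts therefore do not tell a change of the members from one of all symbols. Depth limits KO ethanol 12 most, where 40 of the 72 genes had fewer than 10 counts.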
